A study of Homo sapiens and Mus musculus with 20 samples.

Results

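The core subunits of condensin and of cohesin were examined in 12 RNA-seq libraries of IMR90 cells, a line of normal human fetal lung fibroblasts. The genes were chosen by name: SMC2 and SMC4 (the paired ATPases of both condensins), NCAPD2, NCAPG and NCAPH (condensin I), NCAPD3, NCAPG2 and NCAPH2 (condensin II), and SMC1A and SMC3 (the paired ATPases of cohesin). These are 10 genes among 16683 with values in the A485 comparison, 16417 in the MS-275 comparison and 12013 in the pyruvate comparison. All 10 had values in the first and second of these, and 9 in the third, where NCAPG was not analysed here.

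Each group held 2 libraries of wild-type IMR90 fibroblasts. IMR90_A485 cells received A485, which inhibits the histone acetyltransferase p300, and were set against IMR90_Control2. IMR90_MS-275 cells received MS-275, which blocks histone deacetylases of class I, and were set against IMR90_Control3. IMR90_Pyruvate cells received pyruvate, the product of glycolysis, and were set against IMR90_Control6. The controls are labelled as having no treatment, no library served in more than 1 comparison, and the labels give neither dose nor time. According to the study's text, pyruvate was given to senescent cells; the labels do not state the senescence of any group. The study used the treatments to ask which genes follow histone lactylation during senescence. Nothing in the labels says that the 2 libraries of a group came from separate cultures, so the tests measure the spread between libraries, which may be technical.

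Condensins and cohesin are ring-shaped complexes in which 2 long SMC ATPases are closed by a kleisin subunit and carry HEAT-repeat subunits. Condensin I reaches chromosomes after the nuclear envelope breaks down and condensin II is nuclear throughout the cycle; both compact chromosomes by forming loops. Cohesin holds sister chromatids together from replication until anaphase and also forms the loops of interphase chromatin. Fibroblasts that leave the cell cycle no longer need mitotic compaction, whereas cohesin keeps working in nondividing cells.

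In hg38 with the GENCODE 44 annotation, SMC2 lies at chr9:104094260-104141419 and SMC4 at chr3:160399274-160434954. The condensin I genes NCAPD2, NCAPG and NCAPH lie at chr12:6493356-6531955, chr4:17810979-17844865 and chr2:96335766-96377091. The condensin II genes NCAPD3, NCAPG2 and NCAPH2 lie at chr11:134150113-134225504, chr7:158631169-158704804 and chr22:50508224-50524780. The cohesin genes SMC1A and SMC3 lie at chrX:53374149-53422728 and chr10:110567684-110606048. Of the 10 genes, 6 share exonic bases with a gene on the other strand. These overlaps included 1634 bases of NCAPG with LCORL, 1889 of NCAPD3 with JAM3, 1553 of SMC4 with TRIM59 and 857 of NCAPH2 with SCO2. The strand setting of the counting is not given in the sources used here, so reads from such overlaps cannot be assigned.

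The promoters of 9 of the 10 genes were found in the RefSeq table of 300-base windows (250 bases before and 50 after each annotated start). Proximal promoters of genes expressed in late cell cycle often carry a cell cycle genes homology region, searched here as TTTGAA on either strand (TTCAAA when read on the other strand). At least 1 window of 7 of the 9 genes held this element, against 18.2% of 27305 genes in the table. The windows with the element belonged to SMC2, SMC4, NCAPD2, NCAPG, NCAPD3, NCAPG2 and SMC3. No window of NCAPH or SMC1A held it. The stretches below show where it lies in the 2 condensin ATPases, in 2 condensin I genes and in 1 condensin II gene, with the element in capitals. They are from GRCh38.p14, read 5′ to 3′ on the gene's strand, and end at the base before the start for NCAPG (chr4:17810829-17810978, plus strand), NCAPD2 (chr12:6493902-6494101, plus strand) and SMC4 (chr3:160399500-160399649, plus strand). For NCAPD3 (chr11:134223965-134224117, minus strand) and SMC2 (chr9:104094159-104094311, plus strand) they run 3 bases past the start, because the element spans it.
NCAPG: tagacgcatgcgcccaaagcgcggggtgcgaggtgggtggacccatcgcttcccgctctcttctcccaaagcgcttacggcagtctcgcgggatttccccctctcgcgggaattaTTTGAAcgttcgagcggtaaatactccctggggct
NCAPD2: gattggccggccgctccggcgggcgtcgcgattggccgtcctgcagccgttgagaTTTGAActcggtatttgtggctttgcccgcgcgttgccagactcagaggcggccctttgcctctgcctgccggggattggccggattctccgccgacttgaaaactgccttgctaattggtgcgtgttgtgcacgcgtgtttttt
SMC4: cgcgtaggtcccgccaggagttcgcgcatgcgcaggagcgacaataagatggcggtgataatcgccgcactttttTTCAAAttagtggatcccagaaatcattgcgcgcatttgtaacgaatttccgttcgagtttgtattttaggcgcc
NCAPD3: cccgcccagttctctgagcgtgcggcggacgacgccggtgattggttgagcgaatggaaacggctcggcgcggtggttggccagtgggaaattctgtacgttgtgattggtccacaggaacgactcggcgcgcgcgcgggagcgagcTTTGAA
SMC2: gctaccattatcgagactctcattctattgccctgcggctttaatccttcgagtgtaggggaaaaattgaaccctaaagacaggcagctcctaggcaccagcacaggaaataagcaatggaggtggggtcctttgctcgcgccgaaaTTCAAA
The element began 35 bases before the start in NCAPG, 75 in SMC4 and 145 in NCAPD2. It began 3 bases before the start in both NCAPD3 and SMC2. The start meant is that of the window shown, which was picked for holding the element where a gene had more than 1 window. In SMC4, NCAPD2, NCAPD3 and SMC2 this start lies inside the gene interval given above. A CCAAT box (CCAAT or ATTGG) was present in 3 of the 9 genes, against 39.7% of genes in the table. It occurred 4 times in NCAPD2, at 199, 170, 70 and 30 bases before the start, and it was also found in NCAPD3 and NCAPH. An E2F site (TTTCCCGC, TTTGGCGC or TTTCGCGC, either strand) was present in NCAPD3 and SMC1A, against 3.30% of genes in the table. These matches describe letters in a window and were not tested for binding.

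The libraries of the A485 comparison held 39194881 to 40557867 reads in the listed genes, as recovered from the normalized counts. The depth of the other libraries is unknown; their normalized totals ran from 41513692 to 46808391 in the MS-275 comparison and from 23769581 to 29619616 in the pyruvate comparison. The fibroblast label was checked with 8 markers (COL1A1, COL1A2, COL3A1, VIM, PDGFRB, THY1, LUM and DCN). All 8 had values in each comparison, and they took 1.29% to 3.27% of the normalized total. Of the 2 epithelial markers EPCAM had values, at 47.7 to 208 normalized counts in the A485 comparison and 5.98 to 17.8 in the MS-275 comparison. No endothelial or immune marker had values in any of the comparisons used here. Control2 replicate 1 and the replicate 1 libraries of the MS-275 comparison stood apart from their partners for many subunit genes, as described with each comparison.

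Levels were compared between genes only as normalized counts per kilobase of the longest protein-coding transcript. In all 3 controls NCAPD2, the HEAT-repeat subunit of condensin I, had the highest mean level of the subunits, at 957 per kilobase in Control2, 551 in Control3 and 352 in Control6. NCAPH, the kleisin of condensin I, was lowest in Control2 (132 per kilobase) and Control3 (58.8 per kilobase). In Control6 the lowest means belonged to SMC4 and SMC2, at 3.53 and 3.82 per kilobase, and these neighbours in the order overlapped between libraries. SMC3 was also low there, at 7.83 and 5.50 per kilobase in the 2 libraries, whereas its partner SMC1A was at 155 and 115. SMC1A over SMC3 was thus 19.8 and 20.9 in Control6, against 1.46 and 0.882 in Control2 and 0.634 and 1.75 in Control3. SMC2, SMC3 and SMC4 have the lowest transcript GC content of the subunits (37.3% to 37.6%). The part of GC content in these levels was not tested. In the order of the control means, all 9 neighbouring pairs overlapped between libraries in Control2 and all 9 in Control3, so those orders are not resolved beyond the spread. In Control6 the order was NCAPD2, NCAPH2, SMC1A, NCAPD3, NCAPG2, NCAPH, SMC3, SMC2 and SMC4, and of its 8 neighbouring pairs SMC2 and SMC4 alone overlapped.

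**Figure D1:**
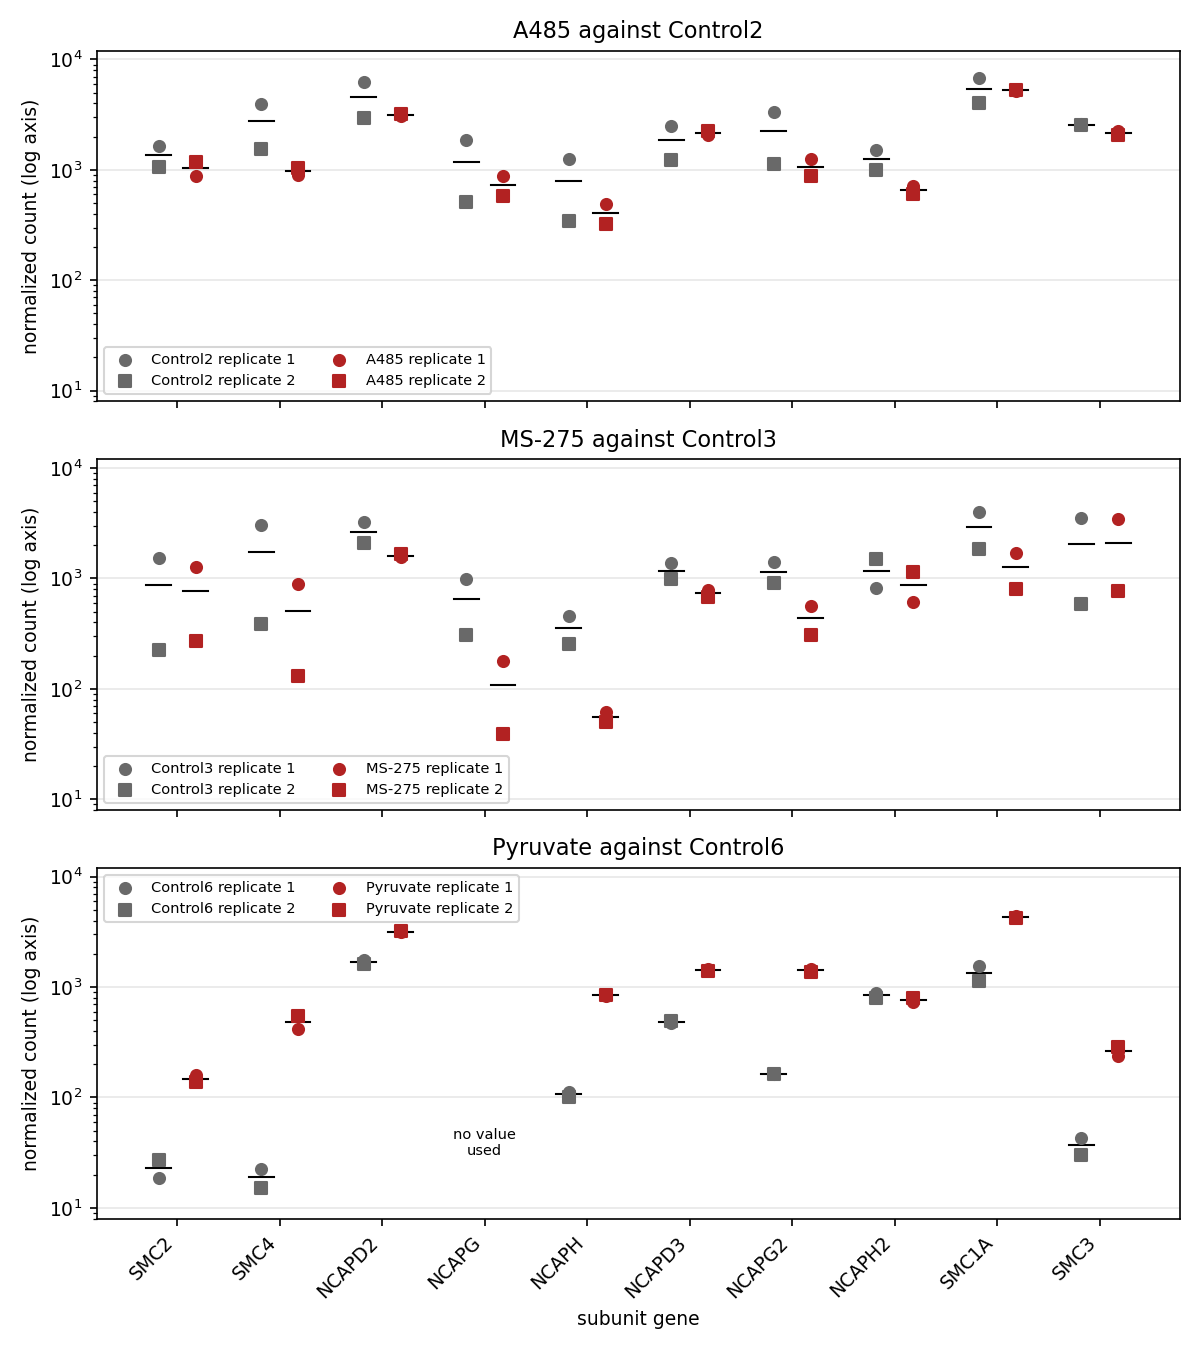
Normalized counts (log axis) of the 10 subunit genes in each library, with controls in grey, treated libraries in red, circles for replicate 1, squares for replicate 2 and short lines for group means of 2 libraries. Control2 replicate 1 lies above Control2 replicate 2 for all 10 genes, and the pyruvate libraries lie above both Control6 libraries for 8 of the 9 genes with values.

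The A485 comparison asked how inhibiting p300 changed expression. None of the 10 subunit genes was called, a gene being called at an adjusted p under 0.05 and an absolute log2 fold change above 1 by limma. SMC4 and NCAPH2 had the lowest adjusted p, and both A485 libraries lay below both controls for these genes and for SMC3. Over all 16084 genes tested, 10.4% were called and 7.06% were called lower. At an unadjusted p under 0.05 there were 2 of the 10 subunit genes (SMC4 and NCAPH2) and 4949 of all 16084 genes tested. On the recovered reads edgeR called 0 of the 10 and 1664 genes in all. DESeq2 called 1, SMC4, and 2325 genes in all. The median log2 fold change was -0.46 over the 10 genes and 0.01 over all genes tested.

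SMC4 was at 3953 and 1559 normalized counts in Control2 replicates 1 and 2, and at 901 and 1047 in A485 replicates 1 and 2. The A485 mean of 974 ± 103 (SD, n = 2) was 0.353 times the control mean of 2756 ± 1693. The log2 fold change was -1.35 ± 0.43 (SE, adjusted p = 0.0914). Thus the control libraries differed from each other by more than Control2 replicate 2 differed from A485. Its partner SMC2 was at 1637 and 1065 in Control2 and at 875 and 1186 in A485. These groups overlapped, and the log2 fold change of SMC2 was -0.37 ± 0.28 (adjusted p = 0.418).

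In condensin I all 3 subunits had a negative log2 fold change and overlapping groups. NCAPD2 was at 6317 and 2922 in Control2 and at 3062 and 3197 in A485. NCAPG, a HEAT-repeat subunit, was at 1862 and 513 in Control2 and at 873 and 577 in A485. Only Control2 replicate 1 was set apart for either gene. NCAPH was at 1250 and 344 in Control2 and at 491 and 323 in A485, with a log2 fold change of -0.72 ± 0.60 (adjusted p = 0.470).

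Condensin II was less uniform. NCAPH2, its kleisin, was at 1505 and 1002 in Control2 and at 708 and 608 in A485, so that the groups did not overlap. Its log2 fold change was -0.90 ± 0.26 (adjusted p = 0.0737). NCAPG2 was at 3375 and 1120 in Control2 and at 1242 and 887 in A485, with a log2 fold change of -0.89 ± 0.51 (adjusted p = 0.292). NCAPD3, the HEAT-repeat subunit that corresponds to NCAPD2, had the only log2 fold change above 0.1 of the 10 genes, at 0.30 ± 0.33 (adjusted p = 0.592). Its A485 values of 2082 and 2243 lay between the control values of 2495 and 1236.

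The cohesin ATPases had the log2 fold changes nearest to 0 of the 10 genes. SMC1A was at 6792 and 4021 in Control2 and at 5174 and 5313 in A485, with a log2 fold change of 0.00 ± 0.27 (adjusted p = 0.994). SMC3 was at 2592 and 2534 in Control2 and at 2233 and 2085 in A485. It was the subunit with the closest controls, and its A485 libraries were both lower, with a log2 fold change of -0.25 ± 0.16 (adjusted p = 0.351).

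In all, 3 of 10 subunit genes had both A485 libraries below both controls, a share close to the 30.7% of all genes tested. Control2 replicate 1 exceeded replicate 2 for all 10 genes, by 0.03 (SMC3) to 1.86 (NCAPH) on the log2 scale. All 5 proliferation markers (MKI67, PCNA, MCM2, CCNA2 and TK1) were also higher in Control2 replicate 1: their summed normalized counts were 23074 there, 9246 in Control2 replicate 2, and 8533 and 6313 in A485. The part of this difference in the result was not tested. In bulk libraries, fewer cells with a transcript and less transcript per cell cannot be told apart. The median of the 10 log2 fold changes was 0.02 without Control2 replicate 1 and -1.10 without Control2 replicate 2.

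The MS-275 comparison asked the same of inhibiting class I histone deacetylases. The condensin I subunits NCAPG and NCAPH had the most negative log2 fold changes, with SMC4 next. Both MS-275 libraries lay below both Control3 libraries for 6 of the 10 genes: all 3 of condensin I, NCAPD3 and NCAPG2 of condensin II, and SMC1A. The share of all 15883 genes tested with this order was 19.3%. Without a replicate block, none of the 10 genes was called by limma, and 0% of all genes were. Of the 10, 3 (NCAPG, NCAPH and NCAPG2) had an unadjusted p under 0.05, as had 1730 of all genes. A limma fit with a replicate block called 5 of the 10 (NCAPG, NCAPG2, NCAPH, SMC1A and SMC4) and 2183 of 15883 genes. Whether libraries of the same number are pairs is not known. The adjusted p given below are those without the block. The median log2 fold change was -0.95 over the 10 genes and -0.01 over all genes tested.

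NCAPH was at 457 and 253 normalized counts in Control3 replicates 1 and 2, and at 62.0 and 49.8 in MS-275 replicates 1 and 2. Its mean in MS-275 was 55.9 ± 8.59 (SD, n = 2), or 0.158 times the control mean of 355 ± 144. The log2 fold change was -2.59 ± 0.46 (SE, adjusted p = 0.209). NCAPG was at 986 and 309 in Control3 and at 177 and 38.9 in MS-275, with a log2 fold change of -2.71 ± 0.94 (adjusted p = 0.406). Even the higher MS-275 library was below the lower control for both genes. NCAPD2 was at 3242 and 2080 in Control3 and at 1552 and 1661 in MS-275, with a log2 fold change of -0.69 ± 0.36 (adjusted p = 0.614).

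For condensin II, NCAPG2 was at 1399 and 912 in Control3 and at 563 and 306 in MS-275, with a log2 fold change of -1.44 ± 0.46 (adjusted p = 0.375). NCAPD3 was at 1369 and 987 in Control3 and at 781 and 682 in MS-275, with a log2 fold change of -0.67 ± 0.34 (adjusted p = 0.611). The groups were apart for both. NCAPH2 was at 826 and 1496 in Control3 and at 613 and 1142 in MS-275, and here the groups overlapped.

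SMC2, SMC3 and SMC4 differed more between replicate numbers than between groups. SMC2 was at 1519 and 223 in Control3 and at 1274 and 269 in MS-275, with a log2 fold change of 0.01 ± 1.19. SMC3 was at 3519 and 587 in Control3 and at 3433 and 777 in MS-275, with a log2 fold change of 0.18 ± 1.12. In both genes replicate 1 was high and replicate 2 low, whatever the treatment. SMC4 was at 3052 and 387 in Control3 and at 886 and 131 in MS-275, with a log2 fold change of -1.67 ± 1.34 (adjusted p = 0.780). SMC1A, whose groups did not overlap, was at 4011 and 1845 in Control3 and at 1716 and 806 in MS-275, with a log2 fold change of -1.21 ± 0.58 (adjusted p = 0.585).

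Read within replicate number, MS-275 was lower than Control3 in both numbers for 8 of the 10 genes, against 40.4% of all genes tested. For SMC4 the log2 difference was -1.78 within replicate 1 and -1.56 within replicate 2. That of SMC1A was -1.22 and -1.19, and that of NCAPG2 was -1.31 and -1.57. These differences were close to each other although the levels were far apart. NCAPG (-2.47 and -2.96) and NCAPH (-2.86 and -2.32) had the most negative differences in either number. SMC2 (-0.25 and 0.27) and SMC3 (-0.04 and 0.40) changed sign between the numbers.

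**Figure D2:**
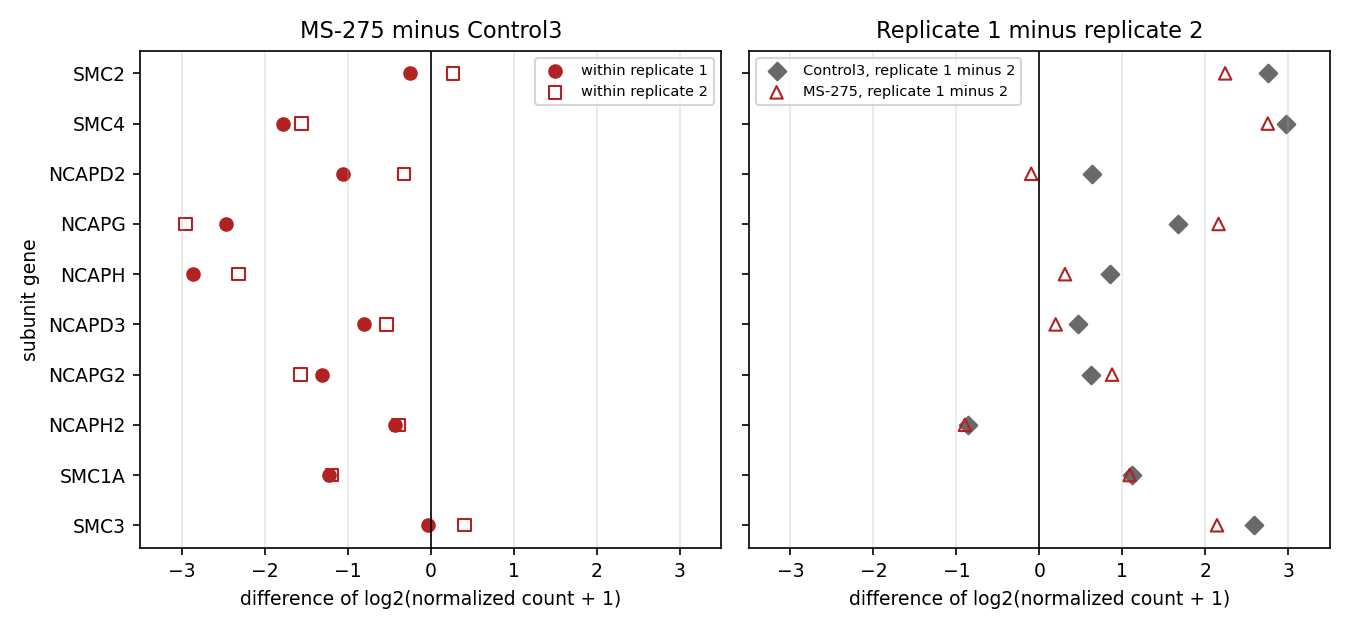
Differences of log2(normalized count + 1) for the 10 subunit genes in the MS-275 comparison: on the left MS-275 minus Control3 within replicate 1 (filled circles) and within replicate 2 (open squares), on the right replicate 1 minus replicate 2 within Control3 (diamonds) and within MS-275 (triangles). SMC2, SMC4 and SMC3 differ by more than 2 log2 units between replicate numbers in both groups, and 8 genes lie below 0 in both numbers on the left.

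Replicate 1 exceeded replicate 2 in both groups for 8 of the 10 genes, and by more than 2 log2 units in both groups for SMC2, SMC3 and SMC4, the genes with the lowest transcript GC content (37.3% to 37.6%). NCAPH2, with the highest GC content (61.3%), was lower in replicate 1 by 0.86 and 0.90 log2 units in Control3 and MS-275. Over 15636 genes the difference between the replicates had a Spearman correlation with GC content of -0.37 in Control3 and -0.46 in MS-275, a description across genes that share 2 libraries. With the trend over GC content and length removed, NCAPG was at -2.71 and NCAPH at -2.65, and 0 genes were called. The median log2 fold change of the 10 genes was -1.56 without Control3 replicate 2 and -0.54 without Control3 replicate 1. It was -1.43 without MS-275 replicate 1 and -0.70 without MS-275 replicate 2.

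The effects of A485 and MS-275 were compared directly in a fit over their 8 libraries. None of the 10 genes was called for a difference between the treatments by limma, while 3.81% of 15130 genes were. At an unadjusted p under 0.05 there were 0 of the 10 and 2659 of all genes. The A485 effect minus the MS-275 effect was 2.25 ± 1.28 for NCAPG (SE, log2 scale, adjusted p = 0.429) and 1.87 ± 0.88 for NCAPH (adjusted p = 0.331). It was 1.21 ± 0.70 for SMC1A (adjusted p = 0.440) and 0.32 ± 1.59 for SMC4 (adjusted p = 0.951). The SE ran from 0.53 (NCAPD3) to 1.59 (SMC4). Differences larger than their SE, such as those of NCAPG, NCAPH and SMC1A, were also not called in this fit, so equal effects cannot be concluded. With a replicate block NCAPG, NCAPH and SMC1A were called, among 3110 of 15130 genes.

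**Figure D3:**
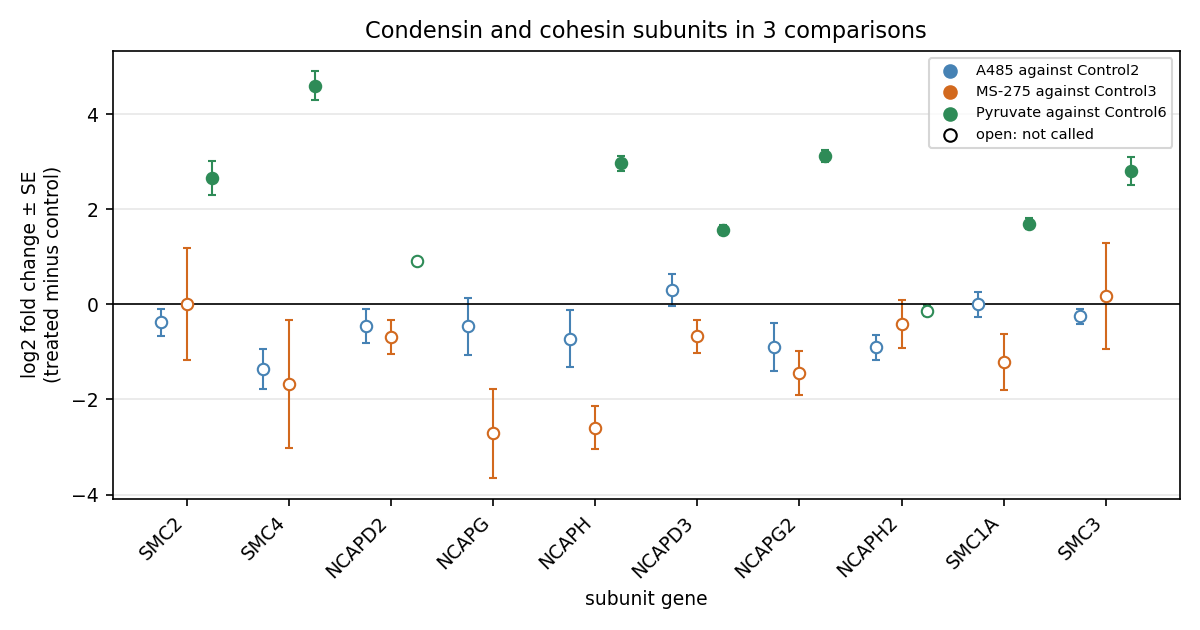
Log2 fold change (treated minus control, with SE) of each subunit gene in the 3 comparisons, 2 libraries in each group, with filled points for called genes. Filled points occur in the pyruvate comparison alone (7 of 9 genes), and the MS-275 errors of SMC2, SMC3 and SMC4 exceed 1 log2 unit.

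The pyruvate comparison asked which genes changed when pyruvate was given. Of the 9 subunit genes with values, 7 rose: SMC2, SMC4, NCAPH, NCAPD3, NCAPG2, SMC1A and SMC3. NCAPD2 was higher by less than the fold required, and the groups of NCAPH2 overlapped. Over all 12013 genes tested, 54.1% were called and 31.0% were called higher. The median log2 fold change was 2.66 over the 9 genes and -0.01 over all genes tested.

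SMC4 rose most, from 22.6 and 15.2 normalized counts in Control6 replicates 1 and 2 to 414 and 547 in pyruvate replicates 1 and 2. The mean went from 18.9 ± 5.23 to 480.3 ± 94.0 (SD, n = 2), a ratio of 25.4, and the log2 fold change was 4.61 ± 0.30 (SE, adjusted p = 7.18e-08). SMC2 rose from 18.7 and 27.1 to 159 and 138, by a log2 fold change of 2.66 ± 0.36 (adjusted p = 3.24e-05). Both condensin ATPases were low in both control libraries, and no pyruvate library overlapped with them.

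For condensin I, NCAPH rose from 112 and 102 to 829.7 and 856, by a log2 fold change of 2.97 ± 0.16 (adjusted p = 1.20e-08). NCAPD2 was at 1773 and 1622 in Control6 and at 3151 and 3201 in pyruvate, a ratio of means of 1.87. Its log2 fold change of 0.90 ± 0.08 had an adjusted p of 6.29e-07 but stayed under the fold of 1 on the log2 scale. The 2 subunits with values were therefore both higher, the kleisin by the larger fold.

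For condensin II, NCAPG2 rose from 162 and 163 to 1463 and 1375, by a log2 fold change of 3.12 ± 0.13 (adjusted p = 1.77e-09). NCAPD3 rose from 471 and 489 to 1467 and 1394, by a log2 fold change of 1.57 ± 0.10 (adjusted p = 6.36e-08). The libraries of each group lay close together for both genes. NCAPH2 was at 883 and 799 in Control6 and at 730.4 and 805 in pyruvate, with overlapping groups and a log2 fold change of -0.13 ± 0.11 (adjusted p = 0.287).

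For cohesin, SMC3 rose from 43.2 and 30.4 to 236 and 289, by a log2 fold change of 2.82 ± 0.29 (adjusted p = 3.21e-06). SMC1A rose from 1542 and 1140 to 4403 and 4200, by a log2 fold change of 1.70 ± 0.12 (adjusted p = 1.18e-07). Pyruvate libraries were above both controls for 8 of the 9 genes, against 45.2% of all genes tested. The summed normalized counts of the 5 proliferation markers were 2484 and 2402 in Control6 and 9263 and 9456 in pyruvate; the part of this difference in the result was not tested.

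The log2 fold changes of the pyruvate comparison followed GC content. Over 11888 genes the Spearman correlation was -0.71, and over the 9 subunit genes it was -0.82; these are descriptions across genes that share the same 4 libraries. Each subunit gene was therefore set against the genes within 1 percentage point of its own GC content. The median log2 fold change of those genes was 1.77 at the GC content of SMC2, SMC3 and SMC4, 1.68 at that of NCAPG2 and 0.56 at that of NCAPH. It was 0.12 at that of SMC1A, 0.13 at that of NCAPD3, -0.51 at that of NCAPD2 and -1.12 at that of NCAPH2. All 9 subunit genes lay above the median of their GC window, by 0.89 (SMC2) to 2.84 (SMC4) log2 units. NCAPH2, whose groups overlapped, lay 0.99 above its window.

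**Figure D4:**
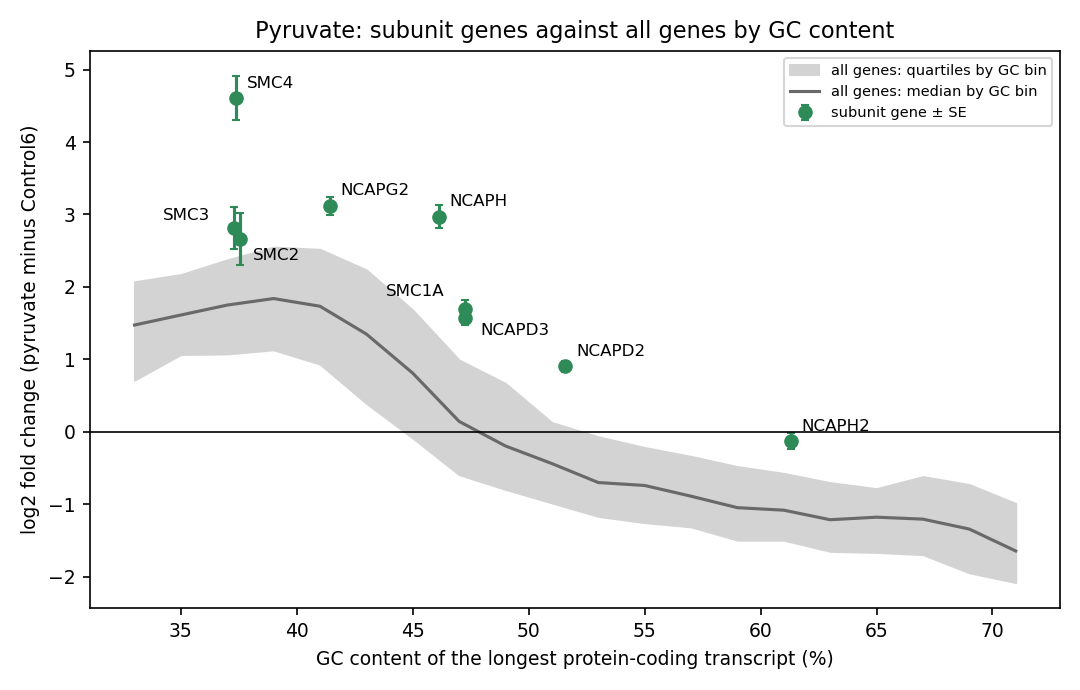
Log2 fold change of pyruvate against Control6 and transcript GC content (percent) for the 9 subunit genes (points with SE), with the median (line) and quartiles (grey) of all genes in bins of GC content. The genes fall with GC content from SMC4 to NCAPH2, as the median of all genes does, and every subunit gene lies above that median.

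When the trend over GC content and length was removed, the log2 fold changes of the 9 genes had a median of 1.12. SMC4 stayed at 2.73, NCAPH at 2.22 and NCAPG2 at 1.39, and SMC1A and NCAPD3 at 1.12 and 1.03. NCAPD2 went up to 1.17 and was then called, so that 6 of the 9 genes were called, all higher. Of all 11888 genes tested in this way 3519 were called, 1794 of them higher. SMC2, at 0.74 (adjusted p = 0.0919 by limma), and SMC3, at 0.93 (adjusted p = 0.0164), were no longer called, SMC3 for its fold alone. NCAPH2 moved from -0.13 to 0.86 (adjusted p = 1.87e-05), under the fold required.

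The partners of each complex were also compared as ratios of normalized counts per kilobase within a library, given as descriptions. NCAPD2 over NCAPD3, the corresponding subunits of condensins I and II, was 3.87 and 3.61 in Control2 and 2.25 and 2.18 in A485. It was 5.74 and 5.06 in Control6 and 3.28 and 3.51 in pyruvate. In both comparisons the treated libraries were below the controls, whereas the MS-275 libraries (3.03 and 3.72) overlapped with Control3 (3.62 and 3.22). With the trend over GC content and length removed, the log2 change of this ratio went from -0.76 to -0.87 with A485, but turned from -0.67 to 0.14 with pyruvate. NCAPH over NCAPH2 was 0.306 and 0.0935 in Control3 against 0.0560 and 0.0241 in MS-275. It was 0.0702 and 0.0707 in Control6 against 0.629 and 0.589 in pyruvate. The groups did not overlap in either, the ratio being lower with MS-275 and higher with pyruvate, whereas A485 and Control2 overlapped. With the trend removed its log2 change went from -2.18 to -2.22 with MS-275 and from 3.10 to 1.37 with pyruvate. SMC2 over SMC4 was 0.370 and 0.610 in Control2 against 0.868 and 1.01 in A485, and 0.445 and 0.516 in Control3 against 1.29 and 1.84 in MS-275. It was 0.738 and 1.60 in Control6 against 0.344 and 0.225 in pyruvate, a log2 change of -1.94 that was -1.99 with the trend removed. SMC1A over SMC3 was 19.8 and 20.9 in Control6 and 10.4 and 8.08 in pyruvate, with SMC1A in excess in all 4 libraries. This log2 change turned from -1.12 to 0.18 with the trend removed. SMC1A over SMC3 was 0.278 and 0.577 in MS-275 against 0.634 and 1.75 in Control3, and A485 overlapped with Control2. NCAPG over NCAPG2 was 0.805 and 0.745 in A485 against 0.632 and 0.524 in Control2. It was 0.361 and 0.145 in MS-275 against 0.807 and 0.3885 in Control3. How often other pairs of genes separate in this way was not tested.

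Genes that work with these complexes were read from 7 lists of 37 genes in all. In the A485 comparison 0 of 37 were called by limma, with 6 at an unadjusted p under 0.05, against 4949 of all 16084 genes tested. edgeR also called 0, with 1664 genes called in all, and DESeq2 called 7, with 2325 of 16084 genes called in all. The other cohesin subunits stayed near the control: RAD21, the cohesin kleisin, was at 8132 and 6526 in Control2 and at 7576 and 6506 in A485. STAG1 and STAG2, which bind the kleisin, had log2 fold changes of -0.33 ± 0.16 and 0.12 ± 0.20. Of 9 genes of cohesin loading, release and acetylation, 8 had a positive log2 fold change, among them the acetyltransferase ESCO2 at 0.70 ± 0.59, and CDCA5, the sororin gene, was at -0.80 ± 0.53. The 8 condensin partners in mitosis had a median of -1.14, led by the mitotic kinase PLK1 at -1.94 ± 0.60 (adjusted p = 0.0869) and the chromokinesin KIF4A at -1.32 ± 0.64 (adjusted p = 0.221). In the SMC5/6 complex NSMCE1, a RING-finger subunit, was at -0.86 ± 0.20 with an adjusted p of 0.0458, under the fold of 1, and NSMCE3 was at 0.50 ± 0.54. PTTG1, or securin, was at -1.16 ± 0.50 and ESPL1, or separase, at -0.95 ± 0.54. Among the proliferation and senescence markers, TK1 was at -1.42 ± 0.48, MKI67 at -1.38 ± 0.52, LMNB1 at -1.12 ± 0.66 and CDKN1A at -0.64 ± 0.35. The groups of LMNB1 and CDKN1A overlapped. CDKN2A, the remaining senescence marker, went the other way, at 0.28 ± 0.18 (adjusted p = 0.342), with both A485 libraries above both controls.

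In the MS-275 comparison 0 of 37 were called by limma, with 15 at an unadjusted p under 0.05, against 1730 of all 15883 genes tested. With a replicate block limma called 17 of the 37 and 2183 of 15883 genes. Among the condensin partners, PLK1 and AURKB had the lowest log2 fold changes. PLK1 was at 977 and 666 in Control3 and at 56.2 and 83.7 in MS-275, a log2 fold change of -3.54 ± 0.42 (adjusted p = 0.162). AURKB, the kinase of the chromosomal passenger complex, was at 446 and 489 in Control3 and at 39.7 and 51.8 in MS-275, a log2 fold change of -3.34 ± 0.38 (adjusted p = 0.162). In these genes the replicates lay close together and the groups far apart. ESCO2 was at -3.52 ± 0.99 and CDCA5 at -2.56 ± 0.42, and SGO1, the protector of centromeric cohesin, was at -2.86 ± 0.51 and ESPL1 at -1.87 ± 0.57. RAD21 was at -0.27 ± 0.54, STAG1 at -0.92 ± 0.86 and STAG2 at -0.44 ± 1.25. The SMC5/6 complex had a median of -0.05, with NSMCE4A at -1.08 ± 0.36 and NSMCE1 at 0.62 ± 0.54. MKI67 was at -3.73 ± 1.48 and CCNA2 at -2.79 ± 0.52. Proliferation markers were lower in both MS-275 libraries than in both controls for 5 of 5 genes, against 19.3% of all 15883 genes tested. Their summed normalized counts were 11378 and 8629 in Control3 and 3328 and 4369 in MS-275; the part of this difference in the subunit values was not tested. LMNB1, the lamin lost in senescence, was at -3.35 ± 0.42 and CDKN1A, the p21 gene, at 0.98 ± 0.47.

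In the pyruvate comparison 26 of 34 related genes with values rose and 2 fell, where 31.0% of all genes tested were called higher and 54.1% in either direction. With the trend over GC content and length removed, 17 were called higher and 2 lower, against 1794 higher and 1725 lower of all 11888 genes. Of the 28 calls, 15 were kept in the same direction. HDAC8 (-1.49), ESPL1 (1.04), MCM2 (1.58) and TK1 (1.82) were called only with the trend removed. Of the genes named next, STAG1, STAG2, NIPBL, WAPL, PDS5A, PDS5B, ESCO1, SMC5, SMC6, NSMCE2, CCNB1, MCPH1 and CDKN1A were then no longer called. Among these the sign turned for NIPBL (-0.11), SMC5 (-0.003) and SMC6 (-0.21), and CDKN1A was at -0.86. WAPL, PDS5A, NSMCE2, CCNB1 and CDKN1A kept an adjusted p under 0.05 by limma and missed the fold alone. All 8 condensin partners rose, with TOP2A, the topoisomerase of mitotic chromosomes, up from 21.6 and 29.3 to 1060 and 1076, a log2 fold change of 5.35 ± 0.22 (adjusted p = 2.15e-09). CDK1, the mitotic kinase, rose by 5.20 ± 0.62, TOP2B by 3.61 ± 0.26, KIF4A by 3.45 ± 0.18 and CCNB1 by 2.11 ± 0.08. The CDK1 values in Control6 were low and unequal, at 3.93 and 26.0 normalized counts. MCPH1, which restrains condensin II, rose by 2.07 ± 0.22, AURKB by 2.01 ± 0.17 and PLK1 by 1.52 ± 0.11. RAD21 rose from 252 and 188 to 1581 and 1604, a log2 fold change of 2.87 ± 0.15, and STAG1 and STAG2 rose by 1.91 ± 0.22 and 2.06 ± 0.28. All 3 remaining cohesin subunits thus rose with SMC1A and SMC3. Of 8 genes of loading, release and acetylation with values, 6 rose: ESCO1 (3.11 ± 0.78), PDS5B (2.98 ± 0.52), WAPL (2.80 ± 0.15), PDS5A (2.70 ± 0.17), NIPBL (1.92 ± 0.28) and CDCA5 (1.24 ± 0.14). Here too the Control6 values of ESCO1 (31.4 and 3.26) and PDS5B (53.0 and 13.0) were low and unequal. MAU2, the partner of the loader NIPBL, was at -0.67 ± 0.09. In the SMC5/6 complex SMC5 (1.84 ± 0.28), SMC6 (1.67 ± 0.29), NSMCE2 (1.64 ± 0.16) and NSMCE4A (1.16 ± 0.17) rose, and PTTG1 rose by 2.52 ± 0.13. Of the proliferation markers MKI67 (4.79 ± 0.28), CCNA2 (4.67 ± 0.22) and PCNA (2.46 ± 0.10) rose. The 2 genes that fell were the cell cycle inhibitors CDKN1A (p21), at -1.87 ± 0.05, and CDKN2A (p16), at -3.18 ± 0.14, while LMNB1 rose by 4.40 ± 0.12.

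Removing the trend over GC content and length moved these lists unequally in the pyruvate comparison. The median log2 fold change of the condensin partners went from 2.78 to 2.68 and that of the proliferation markers from 2.46 to 1.99. The other cohesin subunits went from 2.06 to 0.20 and the SMC5/6 complex from 1.64 to 0.43. RAD21 was at 1.24 after removal, while STAG1 was at 0.01 and STAG2 at 0.20. The subunit genes themselves, with a median of 1.12, lay between these lists.

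**Figure D5:**
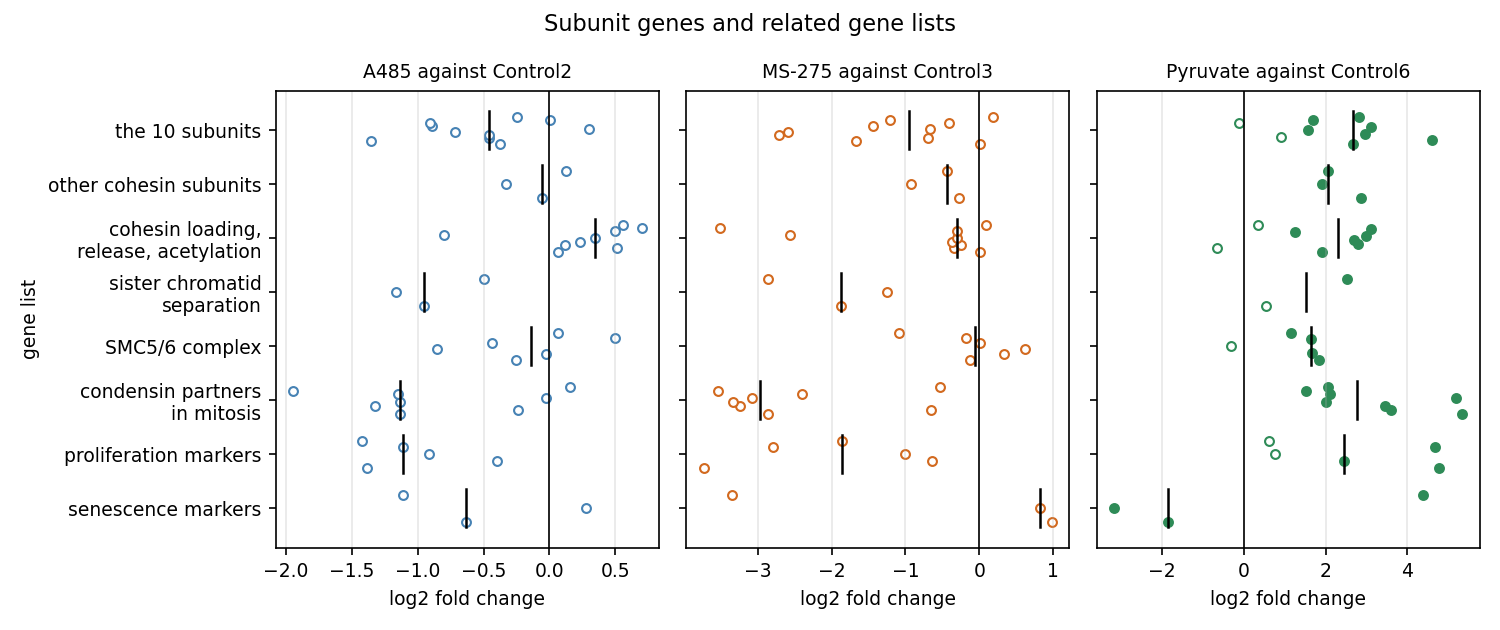
Log2 fold change of the subunit genes and of the genes of 7 related lists in the 3 comparisons (each panel with its own axis range), with 1 point a gene, filled where called, and a line at the median of each list. The condensin partners and proliferation markers lie left of 0 with A485 and MS-275 in 12 of 13 and 13 of 13 genes, and right of 0 with pyruvate in 13 of 13.

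The genes whose pattern over the 12 libraries was most like the mean of the 9 subunit genes with values throughout were sought among 11980 other genes, each library being set against the mean of its own controls. The 5 closest were RBL1 (Pearson r = 0.995), ANLN (0.994), TOP2A (0.991), SFPQ (0.991) and CEP55 (0.988). RBL1 encodes the pocket protein p107, ANLN and CEP55 act in cytokinesis, and SFPQ is a splicing factor. Their pyruvate log2 fold changes were 2.72, 5.03, 5.35, 1.70 and 4.27 in that order. Among the 9 subunit genes, each of which is part of the mean, r was lowest for NCAPH2 at 0.149 and highest for SMC4 at 0.991. The 4 libraries of the pyruvate comparison span most of the range that such an r rests on.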

How the data were processed

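Expression was measured by bulk RNA-seq (TRIzol RNA, paired-end Illumina reads) in IMR90 cells. The authors trimmed reads with Trim Galore 0.6.10, aligned them to hg38 with HISAT2 2.2.1, sorted them with SAMtools 1.7, counted them with featureCounts 2.0.6 and normalized them with DESeq2 1.34.0; the annotation is not given in the sources used here. The deposited values are a signal per gene, the read count divided by a library size factor, here called the normalized count. Whole reads were recovered for the A485 comparison alone (100% of values within 0.05 of a whole read), so edgeR 4.0.16 and DESeq2 1.42.0 were run there as alternatives.

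Groups follow the sample titles. Each comparison was fitted by limma 3.58.1 (trended empirical Bayes, no covariate) on log2(normalized count + 1), keeping genes that averaged 10 or more across their 4 libraries, with Benjamini-Hochberg adjustment over all genes tested. Fold changes are on this scale and understate changes of low genes. The A485 and MS-275 effects were compared in 1 fit over their 8 libraries. GC content and length came from the longest protein-coding GENCODE 44 transcript, and their trend was removed with splines of 5 degrees of freedom. The fit was run on simulated counts with planted changes and no difference between replicate numbers. That simulation cannot show how the fit performs under replicate differences like those of the MS-275 comparison. The 10 genes and the related lists were chosen with earlier results of these data known. All 10 genes are named in every comparison. From each related list the called genes are named or, with none called, the 2 with the largest absolute log2 fold change. RAD21 was added for the A485 and MS-275 comparisons, and CDKN2A for the A485 comparison, after their values were seen. Alternatives covered the pseudocount, the filter on low values, scaling, variance trend, replicate block, GC content and length, fold minimum and each library left out. Mouse muscle libraries were not used here.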

Additional observations from a re-analysis of the deposited data

How the results depend on the processing

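Replicate numbers are shared between groups, but with 2 numbers a pairing cannot be established; deviations of same-numbered libraries correlated across genes at 0.32 (A485), 0.73 (MS-275) and 0.00 (pyruvate). With a replicate block, subunit genes called went from 0 to 1 with A485 (SMC4), from 0 to 5 with MS-275 (NCAPG, NCAPG2, NCAPH, SMC1A and SMC4) and from 0 to 3 for the difference between the 2 effects (NCAPG, NCAPH and SMC1A), and stayed at 7 with pyruvate. Of the 37 related genes it called 8 with A485 and 17 with MS-275, where the fit without it called 0. Genes called in all with the replicate block were 2486 (A485), 2183 (MS-275), 6513 (pyruvate) and 3110 of 15130 (difference between the effects). With the replicate block and the GC and length trend removed together, 1 subunit gene was called with A485 and 5 with MS-275. Genes called in all were then 2448 of 15838 (A485), 2030 (MS-275) and 3543 (pyruvate). Removing that trend without a block left 3519 genes called with pyruvate.

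On the recovered reads of A485, edgeR called 0 subunit genes and 1664 genes in all, and DESeq2 called 1 subunit gene and 2325 genes in all. A fit shared by the 12 libraries called 1 subunit gene with MS-275 (NCAPH) and 488 genes in all. Leaving out 1 library gave 0 to 3 subunit genes with A485, 0 to 3 with MS-275 and 7 to 7 with pyruvate; genes called in all ran from 229 to 1284, 33 to 444 and 6365 to 6484. In A485, equal totals called 2578 genes and empirical Bayes without trend 840. Under equal totals all genes tested had a median of 0.40 (A485), -0.15 (MS-275) and 0.30 (pyruvate), and the share of calls that were higher went from 31.9% to 65.1% in A485, from 57.3% to 71.7% in pyruvate and from 16.0% to 40.4% for the difference between the effects. Quantile normalization moved that share to 42.6% and 49.3%, and removal of the GC and length trend to 42.0% and 51.0%. Under equal totals, the A485 log2 fold changes of SMC2 and SMC3 became 0.019 and 0.15 and that of SMC2 in MS-275 became -0.14. NCAPH2 in pyruvate became 0.18, and 0.86 with the GC and length trend removed, with or without the block. The A485 value of SMC1A became -0.026 by edgeR and -0.043 by DESeq2, and the MS-275 value of SMC2 became -0.014 with the trend removed, with or without the block. For the difference between the effects, equal totals gave 0.15 for SMC2, 0.042 for NCAPH2 and 0.10 for SMC3. In each of these the value lay on the other side of 0 before, and the cause was not tested.

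Leaving out 1 library turned further signs, with these ranges. In A485 they were NCAPD2 -1.01 to 0.099, NCAPG -1.39 to 0.47, NCAPH -1.65 to 0.21, NCAPD3 -0.21 to 0.81 and SMC1A -0.37 to 0.38. In MS-275 they were SMC2 -1.37 to 1.39, SMC3 -1.11 to 1.47 and NCAPH2 -0.86 to 0.039. For the difference between effects they were SMC2 -1.76 to 0.9995, SMC4 -1.17 to 1.81, NCAPD2 -0.32 to 0.79, NCAPG2 -0.24 to 1.35 and SMC3 -1.72 to 0.86. With pyruvate, SMC4, NCAPG2, NCAPH, NCAPD3 and SMC1A stayed called under all 18 alternatives, and SMC2 and SMC3 under 16.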
